A study of Homo sapiens with 8 samples.

Results

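The genes described here are 9 central genes of homologous recombination and of the DNA damage checkpoint: BRCA1, BRCA2, PALB2, ATM, ATR, CHEK1, CHEK2, FANCD2 and PARP1. They were taken by gene name, all 9 were found among the 22554 features of the deposited tables, and all 9 passed the filter on low counts that left 15432 features to test. The study sequenced messenger RNA of SKOV3 cells, an established human ovarian carcinoma line, in McCoy's 5A medium with serum. The 4 control samples had ordinary medium, and 4 samples received low-density lipoprotein (LDL), the main cholesterol carrier of blood, at 50 µg/mL for 48 h. All 8 samples come from this 1 line, and whether the replicates were grown as separate cultures is not in the labels, so the p-values reflect the variation among these samples alone, and that variation may be technical.

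Homologous recombination repairs a broken chromosome by copying the intact sister chromatid. ATM answers to double-strand breaks and ATR to single-stranded DNA at stalled forks; they phosphorylate the checkpoint kinases CHEK2 and CHEK1, which hold the cell cycle. BRCA1 promotes trimming of the broken ends, PALB2 joins BRCA1 to BRCA2, and BRCA2 acts in strand exchange; FANCD2 marks crosslinked DNA in the Fanconi anaemia pathway, and PARP1 senses single-strand breaks. In ovarian carcinoma, loss of this pathway is known as the basis of sensitivity to PARP inhibitors and platinum.

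None of the 9 genes passed the test of LDL against control. At an edgeR adjusted p under 0.05 the count was 0 of 9, where 0.0648% of all tested features were called in either direction. None of the 9 reached an unadjusted p under 0.05 in edgeR, and DESeq2 and limma voom also called 0. The CPM values of control and LDL samples overlapped in all 9, where 3.45% of tested features had groups that did not overlap. The 95% interval of the change lay within 1.3-fold in either direction for all 9 genes, from 0.801 of control at the lowest (PALB2) to 1.228-fold at the highest (CHEK2). In a second readout, the apparent transcript length that counts and FPKM give together, the groups did not overlap for 1 of the 9, FANCD2, where 2.9% of features had groups that did not overlap. The widest spread over libraries in that readout was that of BRCA2, whose groups overlapped and whose lowest values were LDL samples 2 and 3.

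Several of these genes start back to back with another gene, and the stretches between such starts are shown for BRCA1, BRCA2 and PALB2, the 3 genes that act in 1 chain of recombination. DCTN5 and ZAR1L are set beside PALB2 and BRCA2 further on; NBR2, on the other side of the BRCA1 stretch, was not analysed here. Sequences are from RefSeq on GRCh38.p14, read 5′ to 3′ on the strand of the first gene, between start sites annotated in GENCODE release 29. Capitals mark the letters CCAAT, or ATTGG where they lie on the other strand.
BRCA1, toward NBR2, chr17:43125484-43125609, minus strand: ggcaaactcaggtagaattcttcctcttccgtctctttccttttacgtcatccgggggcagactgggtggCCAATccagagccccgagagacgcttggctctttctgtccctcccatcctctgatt
BRCA2, toward ZAR1L, chr13:32315345-32315473, plus strand: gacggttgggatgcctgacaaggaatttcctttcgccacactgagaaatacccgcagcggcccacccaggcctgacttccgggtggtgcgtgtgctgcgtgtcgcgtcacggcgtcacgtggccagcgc
PALB2, toward DCTN5, chr16:23641311-23641391, minus strand: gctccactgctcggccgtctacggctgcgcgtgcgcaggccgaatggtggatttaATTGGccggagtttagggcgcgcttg

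RefSeq gave 13 start windows of 300 bases for the 9 genes. Searched on both strands, CCAAT stood in 8 of the 13 windows, some of which overlap within ATM and CHEK1, against 34.6% of the 35116 windows of all genes. These 8 windows belong to 5 genes (ATM, CHEK1, PALB2, BRCA1 and CHEK2). An E2F-like run of letters (TTTCCCGC, TTTGGCGC, TTTGGCGG or TTTCGCGC, the kind bound by E2F factors that switch on S phase genes) stood in 1 of the 13 windows, that of FANCD2, against 3.35% of all windows. It lies across the RefSeq start of FANCD2 and reads TTTCCCGC on the other strand, in capitals here.
FANCD2, chr3:10026427-10026450, plus strand: cgggcctgGCGGGAAAgtcgaaaa
The letters TTTGAA or TTCGAA, as in the CHR element of G2 phase genes, stood in 1 window, of ATM, against 16.4% of all windows. The motifs were counted one by one, each match is a description of letters, and the FANCD2 window held no other of these letters.

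Total counts ran from 37189698 to 44883561 in control and from 34682501 to 36780334 in LDL samples, so each LDL library was shallower. LDL sample 4 stood apart: its score on principal component 1 was -46.05, where the other 7 libraries lay between -1.86 and 17.37. Leaving it out called no member. Of 9 markers of an epithelial ovarian carcinoma line, all but WT1 had reads in all 8 libraries, with KRT8 at 1550 to 1850 CPM (counts scaled to library size), PAX8 at 372 to 469 CPM and EPCAM at 20.5 to 30.0 CPM; WT1 was at 0 in 3 libraries and MUC16 had 8 to 45 counts. Of 11 markers of other cell types, the leukocyte gene PTPRC and the haemoglobin gene HBB had no read in any of the 8 libraries (0 counts, compatible with up to 3 counts, or 0.0668 to 0.0865 CPM). The collagen gene COL1A1 stood at 146 to 398 CPM and the lysosomal gene CD68 at 37.7 to 52.8 CPM, and the summed level of these 11 markers was 395.1 to 420 CPM in controls and 205.5 to 452.3 CPM with LDL. Over the 5 of these markers that were tested, mean log2 CPM, centred for each gene, was lowest in LDL sample 4. It was -0.687 there, against -0.169 to 0.249 in the other 7 libraries. This mean weights each gene alike, among them the monocyte marker CD14 with 0 to 25 counts per library.

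Levels between genes were compared in FPKM, the authors' values per length and library size; which length they used is not given in the sources used here. PARP1, an abundant nuclear enzyme that builds poly(ADP-ribose) chains, stood far above the rest at 72.6 ± 1.63 FPKM in control and 71.69 ± 4.57 FPKM in LDL samples (SD, n = 4 each). FANCD2 followed at 17.1 ± 0.394 FPKM, CHEK1 at 14.65 ± 0.568 FPKM and BRCA1 at 11.68 ± 1.68 FPKM in control samples (SD, n = 4). CHEK2 at 4.65 ± 0.531 FPKM, ATR at 4.207 ± 0.202 FPKM and PALB2 at 3.73 ± 0.395 FPKM formed a lower group in control samples (SD, n = 4). ATM at 2.494 ± 0.201 FPKM and BRCA2 at 1.687 ± 0.382 FPKM were lowest (control, SD, n = 4).

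The order was the same in every library only at some steps. Over all 8 libraries PARP1 lay above FANCD2 (4.31 times on average), CHEK1 above BRCA1 (1.41 times), BRCA1 above CHEK2 (2.43 times) and PALB2 above ATM (1.52 times), with no overlap of their ranges. Over the 8 libraries the ranges of FANCD2 and CHEK1 overlapped, as did those of CHEK2 and ATR, of ATR and PALB2, and of ATM and BRCA2. CHEK2 lay above ATR in 7 of the 8 libraries, and ATR above PALB2 also in 7. FANCD2 lay above CHEK1 in 6 libraries, all but LDL samples 1 and 3, and in controls their ranges were apart, at 16.75 to 17.6 against 14.16 to 15.46 FPKM. ATM lay above BRCA2 in 6 libraries, all but LDL samples 2 and 3, and in controls their ranges were also apart, at 2.286 to 2.669 against 1.337 to 2.215 FPKM. The effector kinases both stood above the kinases that activate them: CHEK1 at 14.65 against ATR at 4.207 FPKM, and CHEK2 at 4.65 against ATM at 2.494 FPKM, as control means.

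**Figure D1:**
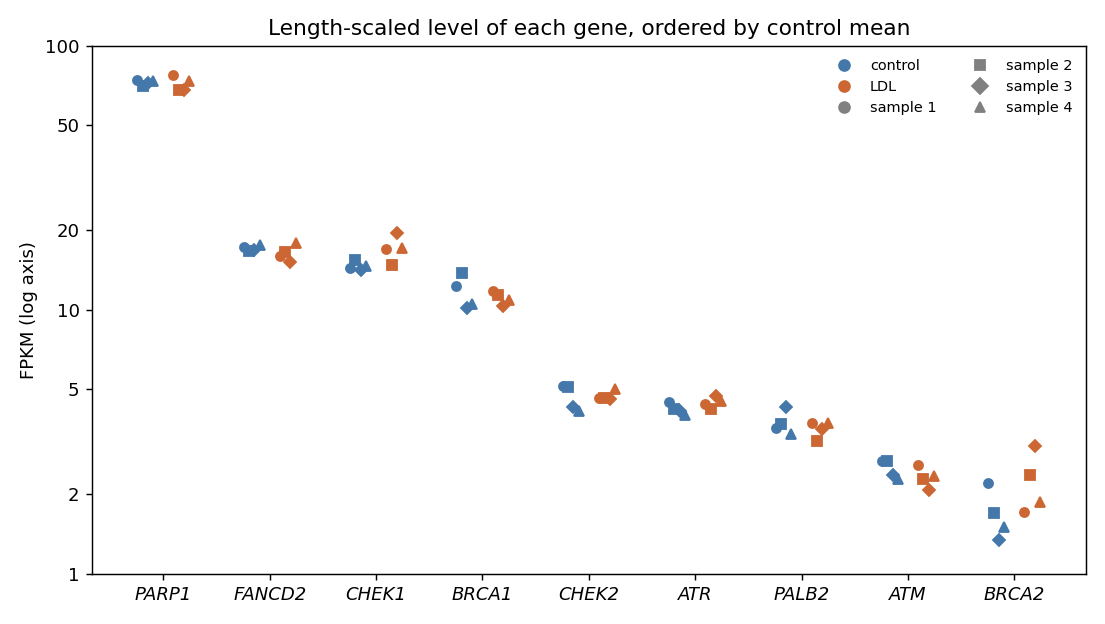
FPKM on a log axis for the 9 genes, ordered by control mean; each point is 1 sample, blue for control and orange for LDL, with the symbol giving the sample number. PARP1 lies apart at the top, and the highest BRCA2 value, 3.052 FPKM in LDL sample 3, lies above every ATM value.

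ATM, the apical kinase of the double-strand break response, had counts of 1450, 1305, 1192 and 1347 in controls 1 to 4 and, in the same order, 1184, 1062, 938 and 1065 with LDL. Scaled to library size these were 35.14, 34.82, 30.79 and 30.23 CPM in controls and 32.02, 30.86, 27.05 and 30.57 CPM with LDL. LDL sample 3 was lowest and control samples 1 and 2 highest, and the groups overlapped. The change was the largest downward one of the 9 genes, at 0.920 of control (log2 fold change -0.12 with an SE of 0.0769, interval 0.822 to 1.03 of control, edgeR adjusted p = 0.884; exact two-sided permutation p = 0.257). In 9 such permutation tests, 1 for each gene, 4 against 4 samples can give no p below 0.0286.

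ATR, which acts at stalled replication forks, was the steadiest of the 9 genes. It stood at 36.55, 35.14, 34.38 and 34.05 CPM in controls 1 to 4 and, in the same order, 34.81, 34.58, 36.05 and 36.8 CPM with LDL. The highest library exceeded the lowest by 1.08 times, both groups covered nearly the same range, and the ratio was 1.015-fold (log2 fold change 0.02 with an SE of 0.0616, edgeR adjusted p = 0.979).

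CHEK1, the kinase that ATR activates, had the largest upward change. Its values were 53.15, 50.77, 47.48 and 43.88 CPM in controls 1 to 4 and, in the same order, 48.01, 49.98, 53.58 and 57.64 CPM with LDL. LDL sample 4 was highest and control sample 4 lowest, while the other 6 libraries were interleaved. The ratio was 1.071-fold (log2 fold change 0.10 with an SE of 0.0736, edgeR adjusted p = 0.901; exact permutation p = 0.286). In FPKM the values were 14.38, 15.46, 14.16 and 14.61 in control and 17.02, 14.81, 19.57 and 17.15 in LDL samples. Of these, 3 LDL samples lay above all control samples and LDL sample 2 within the control range. The FPKM ratio of the means was 1.169 (exact permutation p = 0.0571). With a mean FPKM of at least 0.5, limma on log2(FPKM + 1) gave a log2 fold change of 0.21. Its limma p was 0.019 unadjusted and 0.711 adjusted over all features. The limma fits with a pseudocount of 0.1 and with no minimum gave an unadjusted p of 0.0191 and 0.0252.

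CHEK2, the kinase downstream of ATM, had the fewest reads of the 9 genes, with counts of 380, 343, 328 and 341 in controls 1 to 4 and, in the same order, 322, 299, 309 and 337 with LDL. These are 9.21, 9.151, 8.472 and 7.654 CPM in controls and 8.709, 8.689, 8.911 and 9.674 CPM with LDL. As for CHEK1, control sample 4 was lowest and LDL sample 4 highest. The ratio was 1.044-fold (log2 fold change 0.06 with an SE of 0.111, edgeR adjusted p = 0.961). Counting error alone gives a coefficient of variation of 5.78% at the smallest count. The CPM values varied by 6.79% over the 8 libraries, close to that value. The edgeR fit, which draws on other features too, gave CHEK2 a variation beyond counting error of 13.44%.

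BRCA1 had counts of 3014, 2728, 2491 and 2869 in controls 1 to 4 and, in the same order, 2477, 2509, 2196 and 2163 with LDL. On the CPM scale these were 73.05, 72.78, 64.34 and 64.39 in control and 66.99, 72.91, 63.33 and 62.09 in LDL samples. Control samples 1 and 2 and LDL sample 2 were high and the other 5 libraries lower, with both groups on each side. The ratio was 0.966 of control (log2 fold change -0.05 with an SE of 0.0667, interval 0.876 to 1.066 of control, edgeR adjusted p = 0.952).

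PALB2, the bridge between BRCA1 and BRCA2, stood at 16.14, 15.61, 18.34 and 14.39 CPM in controls 1 to 4 and, in the same order, 15.42, 13.34, 15 and 15.9 CPM with LDL. Control sample 3 was highest and LDL sample 2 lowest, and the other 6 libraries fell between 14.39 and 16.14 CPM. The ratio was 0.926 of control (log2 fold change -0.11 with an SE of 0.0986, edgeR adjusted p = 0.928).

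FANCD2, which is monoubiquitinated at crosslinks, stood at 89.94, 87.21, 89.53 and 91.96 CPM in controls 1 to 4 and, in the same order, 83.73, 88.43, 81.73 and 94.78 CPM with LDL. The LDL samples held both the highest and the lowest value, around a tight control group. The ratio was 0.972 of control (log2 fold change -0.04 with an SE of 0.056, edgeR adjusted p = 0.953).

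PARP1 had 9842 to 13680 counts per library. It stood at 307.1, 293.8, 305.9 and 307 CPM in controls 1 to 4 and, in the same order, 316.3, 286, 285 and 306 CPM with LDL. LDL samples 2 and 3 were lowest and LDL sample 1 highest, so here too the LDL samples enclosed the controls. The ratio was 0.983 of control (log2 fold change -0.02 with an SE of 0.0471, interval 0.918 to 1.053 of control, edgeR adjusted p = 0.964). This was the narrowest interval of the 9 genes.

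**Figure D2:**
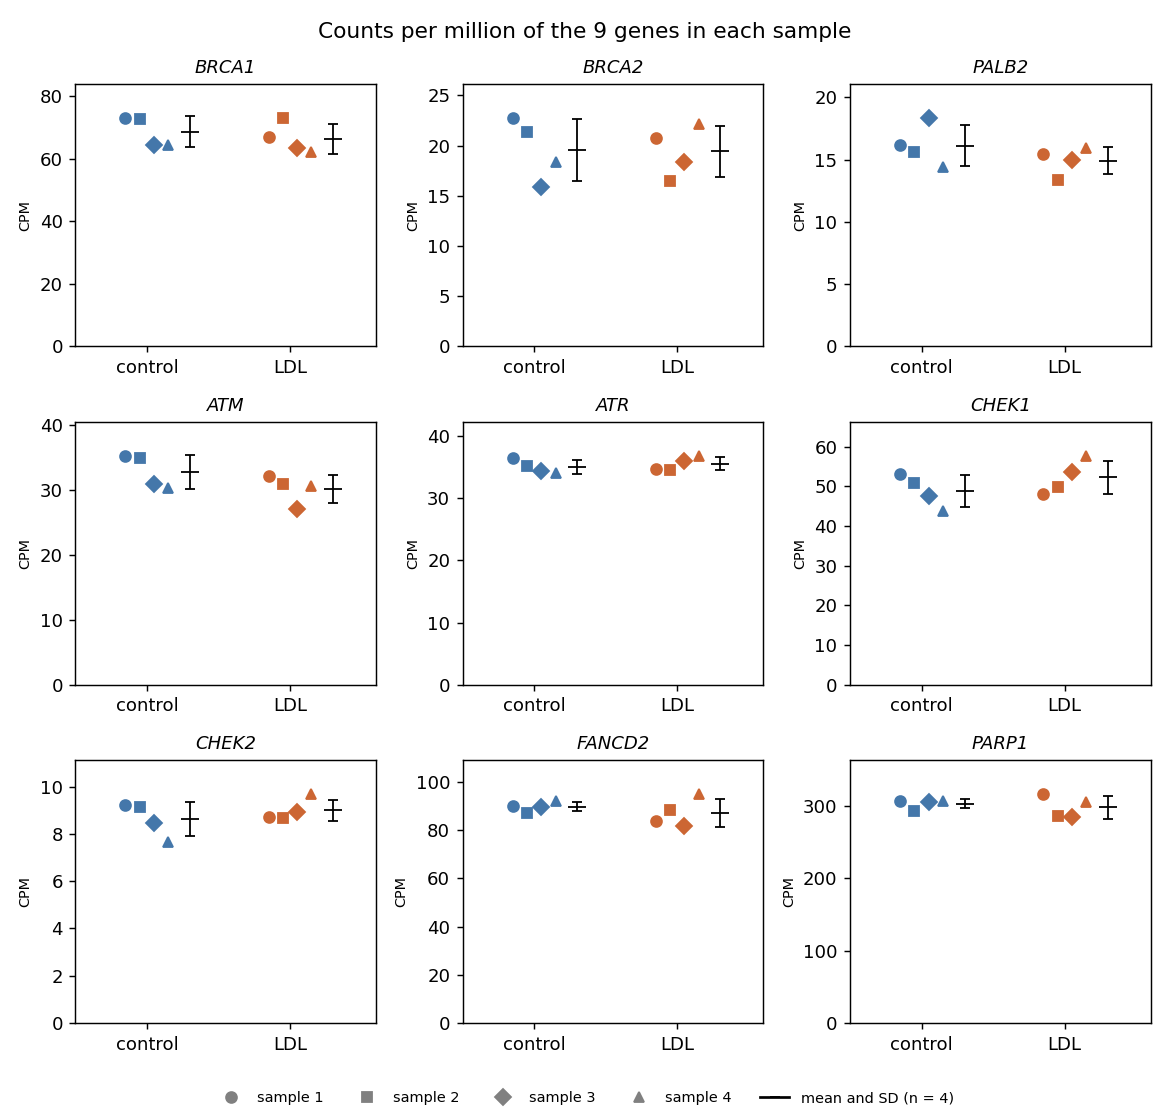
CPM of each gene in the 8 samples, control in blue and LDL in orange, with the symbol giving the sample number and the black bar the mean and SD of 4 samples; each vertical axis starts at 0. The groups overlap in all 9 panels, with ATR and PARP1 flat and BRCA2 the most spread.

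**Figure D3:**
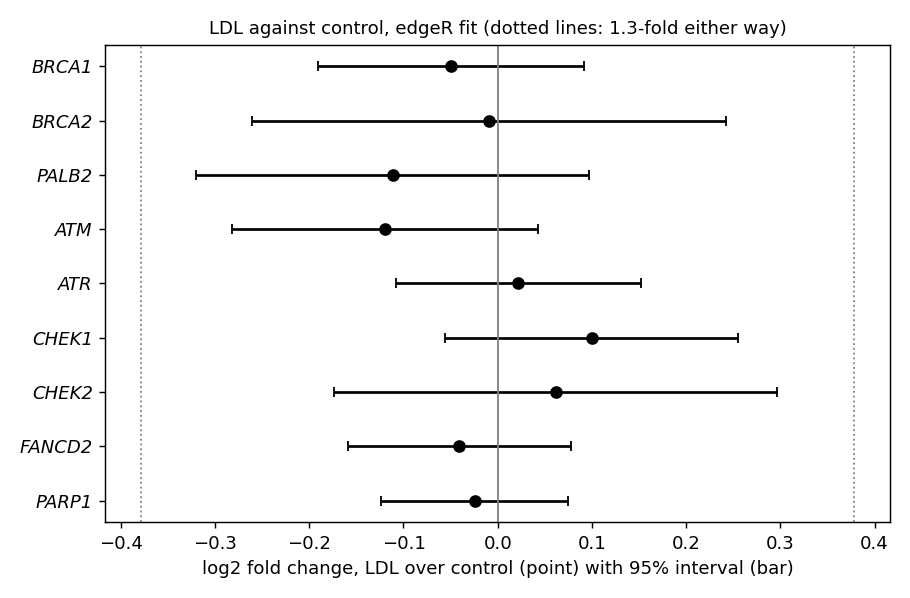
Log2 fold change of LDL over control for each gene (point) with its 95% interval (bar) from the edgeR fit; dotted lines mark 1.3-fold in either direction. All 9 intervals cross 0 and stay within the dotted lines.

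BRCA2 was the gene whose deposited tables went apart. Its counts were 939, 801, 615 and 816 in controls 1 to 4 and, in the same order, 769, 566, 637 and 773 with LDL. These are 22.76, 21.37, 15.89 and 18.32 CPM in controls and 20.8, 16.45, 18.37 and 22.19 CPM with LDL. Both groups covered the same range, and the ratio was 0.993 of control (log2 fold change -0.01 with an SE of 0.118, interval 0.834 to 1.183 of control, edgeR adjusted p = 0.995). Its FPKM values were 2.215, 1.698, 1.337 and 1.499 in control and 1.708, 2.357, 3.052 and 1.861 in LDL samples. Here LDL samples 2 and 3 were the highest of all 8, although they were among the 4 lowest in CPM. The FPKM ratio was 1.33 (exact permutation p = 0.143). Without LDL samples 2 and 3, left out after their values were seen, the FPKM ratio was 1.057 and the CPM ratio 1.098.

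Counts divided by FPKM and library size give an apparent transcript length, which moves when the estimated mix of long and short transcripts moves. For BRCA2 this length was 10347, 12558, 11728 and 12192 bases in controls 1 to 4 and, in the same order, 12440, 6940, 5978 and 11936 bases with LDL. GENCODE release 29 lists 2 coding transcripts of BRCA2, of 11986 and 10984 bases, and shorter noncoding ones of 495 to 7950 bases. The 6 libraries other than LDL samples 2 and 3 lay around the lengths of the coding transcripts, and those 2 lay below both. An apparent length need not equal an annotated one. For PARP1 it was 4162 to 4174 bases, above the 3958 bases of its longest coding transcript. The longest apparent length of BRCA2 was 2.1 times the shortest. Of 10828 features with at least 200 counts in every library, 0.619% had a range of 2-fold or more, and BRCA2 was the 1 member among them. The spread of its log2 length over the 8 libraries, 0.42, lay at the 99.6 percentile of these features, whose median was 0.0181. As a comparison of groups the difference was not called, with 11706 ± 968 bases in control and 9323 ± 3340 bases in LDL samples (SD, n = 4 each; exact permutation p = 0.314). How the authors summed FPKM over transcripts is not given in the sources used here, and the part of the transcript mix in the BRCA2 values was not tested.

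The lengths of the other members varied less than those of BRCA2. CHEK1 came next, from 2720 bases in LDL sample 3 to 3721 bases in control sample 1, a range of 1.37 times, and its shortest lengths were in LDL samples 1 and 3. The SD of its log2 length was 0.145 and that of BRCA1 was 0.0876, both above the feature median of 0.0181, and BRCA1 lay at the 87.7 percentile of features. BRCA1 ranged over 1.21 times and ATR over 1.12 times. PARP1 lay between 4162 and 4174 bases in all 8 libraries. FANCD2 was the 1 gene whose groups did not overlap in length, at 5254, 5196, 5249 and 5215 bases in control and 5342, 5316, 5349 and 5297 bases in LDL samples (exact permutation p = 0.0286, the smallest possible, in 9 such tests), where 2.9% of features had groups that did not overlap. The FANCD2 means were 5228 and 5326 bases.

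**Figure D4:**
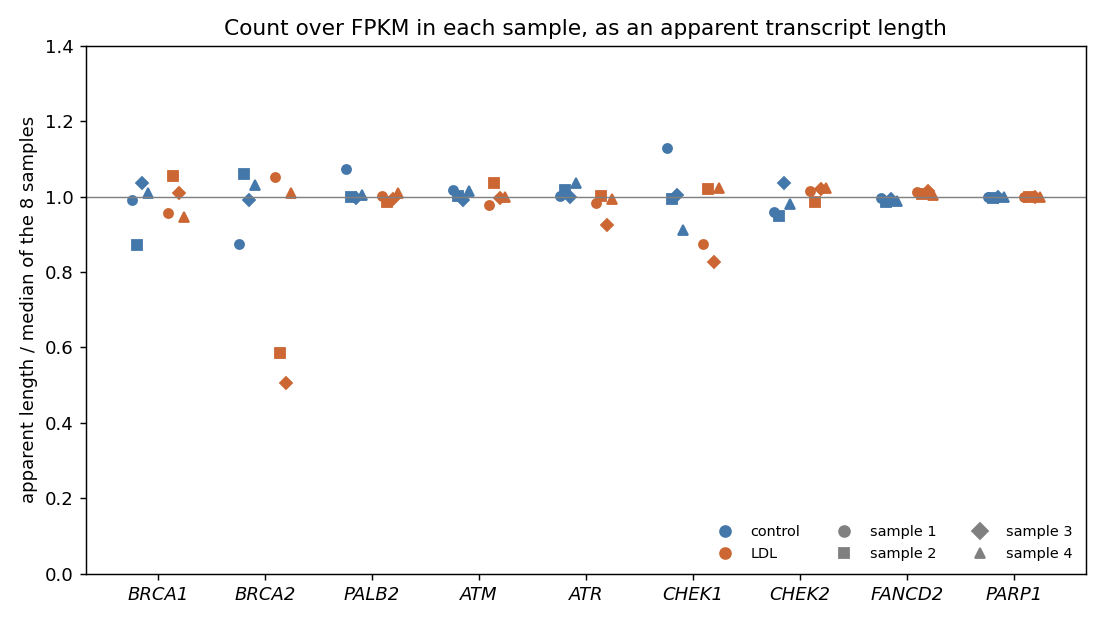
Apparent transcript length of each gene in each sample, divided by the median of its 8 samples, control in blue and LDL in orange with the symbol giving the sample number; the vertical axis starts at 0. BRCA2 in LDL samples 2 and 3 (6940 and 5978 bases) lies far below the line at 1, while PARP1 and FANCD2 stay on it.

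The members did not share 1 pattern over the libraries. Likeness was measured as the root mean square difference of log2 CPM, each gene centred on its mean over the 8 libraries, against 13767 named features. CHEK1 and CHEK2 were the most alike pair of members: CHEK2 was the feature ranked 11 for CHEK1, and CHEK1 ranked 49 for CHEK2. BRCA1 ranked 99 for ATM, and ATM ranked 259 for BRCA1. For the other 5 genes the nearest member ranked between 514 and 1207. The single most alike feature was CDKN1B for BRCA1 (difference 0.0367), UGP2 for CHEK1 (0.0345), NAA50 for CHEK2 (0.0221), NBPF11 for ATM (0.0377), NIPA2 for ATR (0.0118), NXN for FANCD2 (0.0203), DHDDS for PARP1 (0.0159), TBX15 for PALB2 (0.0519) and INO80D for BRCA2 (0.0572). All these genes share libraries and their depth, and flat genes have many near neighbours by this measure.

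Genes that start head to head with a member were compared next. NPAT, a regulator of histone genes whose annotated starts overlap those of ATM on chromosome 11, stood at 22.47 ± 1.82 CPM in controls and 20.94 ± 0.851 CPM with LDL (SD, n = 4 each; log2 fold change -0.10, edgeR adjusted p = 0.911), beside -0.12 for ATM. DCTN5, a dynactin subunit gene that starts 82 bases from PALB2, stood at 106.4 ± 3.39 and 102.3 ± 5.07 CPM (SD, n = 4 each; log2 fold change -0.06, edgeR adjusted p = 0.93). HSCB, a cochaperone gene of iron-sulfur cluster assembly that starts 187 bases from CHEK2, stood at 15.87 ± 1.22 and 15.22 ± 1.92 CPM (SD, n = 4 each; log2 fold change -0.06, edgeR adjusted p = 0.96), where CHEK2 was at 0.06. NBR1, an autophagy receptor gene, starts 236 bases from the most upstream annotated start of BRCA1 and stood at 95.79 ± 1.53 and 88.86 ± 3.4 CPM (SD, n = 4 each; log2 fold change -0.11, edgeR adjusted p = 0.878). ZAR1L, across the 129 bases printed for BRCA2, had 0 to 4 counts per library, while BRCA2 had 566 to 939. So ZAR1L was at or near 0, while NPAT with 697 to 1002 counts, HSCB with 480 to 751, DCTN5 with 3400 to 4853 and NBR1 with 2918 to 4302 were all read in depth beside their members.

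The partners of these genes were taken as 9 lists with 106 genes, all of them in the files and all tested. In edgeR 0 of the 106 were called, 3 had an unadjusted p under 0.05, RBBP8 and PAXX among them, where 5.59% of all features did, and DESeq2 and limma voom also called 0. The medians of the log2 fold change lay between -0.0236 and 0.0573 in the 9 lists, at -0.0246 in the 9 members and at 0.00603 over all features. Above 0 lay 52 genes and below it 54.

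Among 11 genes of break sensing and end resection 5 lay above and 6 below 0. RBBP8, the resection factor CtIP that works with BRCA1, had the smallest p of all, at 64.41 ± 4.97 CPM in controls and 72.83 ± 5.96 CPM with LDL (SD, n = 4 each; 1.131-fold, edgeR adjusted p = 0.835). Of 17 genes of strand exchange 11 lay above 0, with SWI5, a strand exchange cofactor, at 17.82 ± 1.56 and 20.57 ± 3.46 CPM (SD, n = 4 each; 1.154-fold, edgeR adjusted p = 0.884). Of 7 junction resolution genes 3 lay above 0, and RMI1, part of the BLM dissolvase, was at 1.109-fold (edgeR adjusted p = 0.884). Of 7 genes of BRCA1 complexes 4 lay above 0, and BABAM1, of the BRCA1-A complex, was at 1.038-fold (edgeR adjusted p = 0.936).

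Of 16 Fanconi anaemia genes 8 lay above and 8 below 0, and FANCF, a subunit of the core complex that modifies FANCD2, was at 1.12-fold (edgeR adjusted p = 0.884). Of 16 checkpoint partners 6 lay above and 10 below 0. RAD9A, of the clamp that helps ATR, stood at 14.55 ± 0.456 CPM in controls and 16.46 ± 1.47 CPM with LDL without overlap (SD, n = 4 each; 1.131-fold, edgeR adjusted p = 0.879). Of 10 genes of break-site chromatin and end protection 7 lay below 0. SHLD1, a shieldin subunit that limits resection, stood at 3.439 ± 0.251 and 2.683 ± 0.34 CPM, also without overlap (SD, n = 4 each; ratio 0.780, edgeR adjusted p = 0.879). RAD9A and SHLD1 were named for the smallest p of their lists, and 3.45% of all tested features had groups that did not overlap.

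Of 11 genes of PARP signalling and single-strand break repair 8 lay above 0, with a median of 0.0573. Of 11 end joining genes 4 lay above 0. PAXX, which helps the Ku proteins, stood at 50.68 ± 2.24 and 56.16 ± 3.79 CPM without overlap (SD, n = 4 each; 1.108-fold, edgeR adjusted p = 0.876). It too was named for the smallest p of its list, where 3.45% of all tested features had groups that did not overlap.

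**Figure D5:**
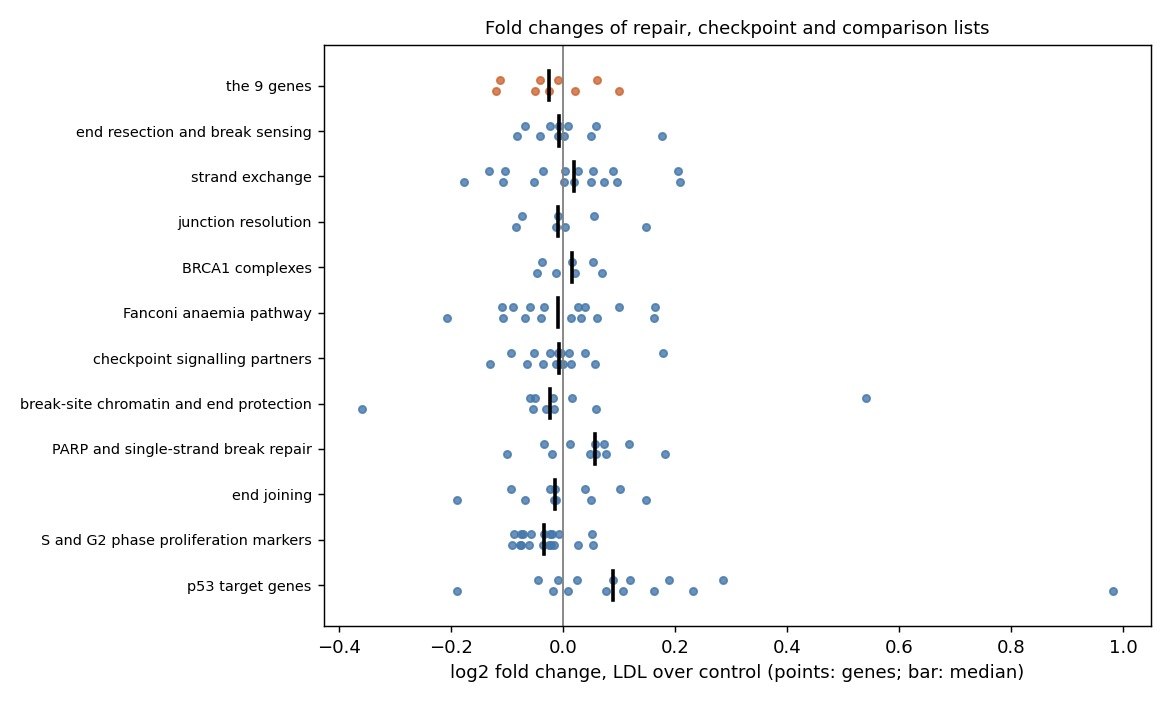
Log2 fold change of LDL over control for each tested gene (points) and its list's median (black bars), for the 9 genes (orange), 9 lists of repair and checkpoint partners, and the proliferation and p53 target lists. Medians lie close to 0, and the point farthest right is ZMAT3 of the p53 targets at 0.982.

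Many repair genes are expressed mainly in S and G2 phase, so proliferation markers were read beside them. Of 19 such markers 0 were called and 0 had an unadjusted p under 0.05 in edgeR, with 0 called by DESeq2; 16 lay below 0, with a median of -0.034. Over all features tested, 47.7% lay below 0. The summed level of the markers was 4226 to 4346 CPM in controls and 4131 to 4217 CPM with LDL, so the sums did not overlap. The sum weights abundant markers most. Of single tested features 3.45% had groups that did not overlap, and no such share was computed for sums. The mean log2 CPM of the markers, with each gene centred on its own mean, did overlap: control sample 2 was at -0.00809 and LDL sample 2 at 0.00146. The part of these markers in the members' values was not tested. TOP2A, the topoisomerase of dividing cells, was at 0.942 of control (edgeR adjusted p = 0.882). Of 15 p53 target genes 0 were called in edgeR or DESeq2. An unadjusted edgeR p under 0.05 was reached by 2 of the 15, where 5.59% of all features did. Of the 15 genes 11 lay above 0, where 8064 of all 15432 features did. Their median was 0.0892, against 0.00603 over all features. Whether p53 is active in these cells was not tested. PLK3, a stress-induced kinase gene, was at 1.219-fold (edgeR adjusted p = 0.785). ZMAT3, named after its values were seen, varied in control samples (8.771 ± 8.45 CPM) more than in LDL samples (17.36 ± 1.04 CPM; SD, n = 4 each; edgeR adjusted p = 0.93).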

How the data were processed

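Per the submitters' processing notes, HISAT2, featureCounts, DESeq2 1.26.0 and GRCh38 were used, with no roles stated; libraries were stranded and poly(A)-selected per the labels' protocols. The deposited counts are whole numbers but are not proportional to the deposited FPKM within a gene, and 2557 features carry assembly names, so they were handled as estimated counts, with no rounding needed. The deposited FPKM is by its unit relative to length and library size; the length used, the annotation and the strand setting of the counting are not stated in these sources.

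Features were tested with edgeR 4.0.16 (quasi-likelihood, robust, TMM, filterByExpr, R 4.3.3), group as the only term, with Benjamini-Hochberg adjustment over 15432 features. CPM used TMM-scaled totals. Apparent length is the count over FPKM and library total, in bases, with each library's median deviation removed. The exact permutation tests used log2 values.

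Alternatives were DESeq2 1.42.0, limma 3.58.1 (voom, and FPKM with pseudocounts of 1 and 0.1 and a mean of at least 0.5 or none), other factors, filters and thinning, a replicate block and leaving out samples; leaving out LDL samples 2 and 3 together was added after seeing the data. Same-numbered samples had deviations correlated from -0.101 to 0.0602, so the numbers were not taken as pairs. Chi-square over features was 6.835 to 28.92 times its degrees of freedom between replicates, lowest between LDL samples 2 and 3. Pooled over features, each pair of replicates thus differed by more than the sampling noise of plain counts. The counts were handled as estimated, and which features carry the excess was not examined. This measure cannot tell separate cultures from repeat libraries of 1 culture. Counting intervals and floors cover counting error only.

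The members, lists and rules were chosen with earlier results of these data known. The rule named all 9 members, up to 3 called genes of each list or else its gene with the smallest p, the feature most alike to each member, and genes starting on the opposite strand within 1000 bases by GENCODE release 29. COL1A1, CD14, KRT8, EPCAM, PAX8, WT1, PTPRC, HBB and ZMAT3 were named besides. The gene that the rule names in the list of PARP signalling and single-strand break repair is not reported here. Protein sequences were not used here.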

Additional observations from a re-analysis of the deposited data

Results flagged for a closer look

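With 80 groups of 4 values looked at (CPM, FPKM and apparent length of the 9 genes, and CPM of the genes named from lists), 4 held a sample whose gap to the nearest of the others was above Dixon's 95% critical share of the group's range, where chance flags about 1 group in 20. PALB2 had an apparent length of 4550 bases in control sample 1, against 4219 to 4255 bases in the other controls. CHEK2 stood at 5.007 FPKM in LDL sample 4, against 4.597 to 4.644 FPKM in the other LDL samples. PARP1 stood at 293.8 CPM in control sample 2, against 305.9 to 307.1 CPM in the other controls. SWI5 stood at 15.42 CPM in LDL sample 1, against 21.84 to 22.87 CPM in the other LDL samples.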

How the results depend on the processing

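No member was called under any of the 20 alternatives, and their adjusted p ran from 0.393 (CHEK1 without LDL sample 1) to 1. BRCA1, PALB2, ATM, ATR, CHEK1, CHEK2 and FANCD2 kept their direction under all 20. BRCA2 turned upward in FPKM, at 0.26 with a pseudocount of 1, with or without a minimum, and 0.38 with 0.1, and at 0.13 without LDL samples 2 and 3; with 1 sample left out it ran from -0.097 to 0.067. PARP1 turned upward without LDL samples 2 and 3, at 0.036. Features called over the whole table were 10, against 47 with DESeq2, 2 with the replicate block, 4, 2 and 3 in the FPKM fits (pseudocount 1, 0.1, and 1 with no minimum), 5 without LDL samples 2 and 3, and 2 to 149 with 1 sample left out, the highest without LDL sample 1. The replicate block, whose numbers pair nothing in the labels, called 0 of the 9 members. The CPM of CHEK2 and ATR varied over the 8 libraries by 6.79% and 2.95%, close to the counting error of their smallest counts, 5.78% and 2.9%. The edgeR fit, which draws on other features too, gave them a variation beyond counting error of 13.44% and 7.2%. With counts thinned to equal totals, the log2 fold change was 0.0228 for ATR and 0.0598 for CHEK2, beside 0.0217 and 0.0616 in the main fit. The part of depth in the variation of these genes was not tested.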
